A study of Homo sapiens with 4 samples.

Results

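The comparison set cells given a miR-214 mimic directly against cells given either of a pair of small interfering RNAs (siRNAs) to the long noncoding RNA PVT1. It used 3 of the 4 arrays of the series, those titled for the miR-214 mimic, siPVT1-1 and siPVT1-2. The difference for a gene was its log2 level on the mimic array minus the mean of its log2 levels on both siPVT1 arrays, so a positive value means a higher level with the mimic. The remaining array, from cells given a negative control duplex (NC), served for normalization and is shown for orientation only. Of 28264 probes, 25893 had a gene symbol, and of the 19090 genes they covered, 10668 exceeded a signal level of 9.72 (log2, the median of all probes) and were compared.

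All 4 groups were cells labelled HepG2, an established human line from a liver tumour, transfected with small RNAs by the reagent INTERFERin. They received the miR-214 mimic, siPVT1-1, siPVT1-2 or the NC duplex, and no untransfected cells are among the samples given. Each group was 1 sample on 1 array, so no value has a replicate, no p-value is given for a gene, and differences were counted by size. The labels give neither the time after transfection nor the strand that the mimic carries. PVT1 itself was not analysed here, so its knockdown was not checked, and siPVT1-1 and siPVT1-2 are different duplexes and not replicates.

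A microRNA guides an Argonaute protein to messenger RNAs that match its seed, the stretch near its 5′ end, and lowers their stability and translation. An siRNA uses the same protein to cut a fully matching RNA, and its own seed can also lower unintended messages. Comparing one transfected duplex with another, as here, leaves out effects that every duplex and the reagent share. PVT1 lies beside the oncogene MYC and has been studied as a cancer-associated RNA, and the series title places it with miR-214 in hepatocellular carcinoma.

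The mature sequences of miR-214 are shown because they define what a mimic can target, with the seed (bases 2 to 8) in capitals. They are from RefSeq on GRCh38.p14, where the 3p arm lies at chr1:172138816-172138837 and the 5p arm at chr1:172138857-172138878, both on the minus strand.
hsa-miR-214-3p: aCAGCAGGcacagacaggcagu
hsa-miR-214-5p: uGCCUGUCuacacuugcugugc
The 3p seed CAGCAGG was shared by 3 mature human microRNAs in the table, the other members being the following ones, so a message found by this seed is not particular to miR-214.
hsa-miR-761: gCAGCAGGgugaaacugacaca
hsa-miR-3619-5p: uCAGCAGGcaggcuggugcagc
The 5p seed was found in no other mature entry of that table. Transcript sequences were not used here, so seed sites in the genes below were not counted.

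Median deposited intensities were 828.1 with the mimic, 835.9 with siPVT1-1, 784.1 with siPVT1-2 and 926.9 with NC. Most listed hepatocyte genes were dim: of 27 listed, 24 had a probe and 6 passed the level filter. Those 6 weigh most in the hepatocyte sum given below. They included APOC3 (11.20 with the mimic), FOXA1 (11.06) and APOA1 (10.49). Albumin (ALB) had log2 levels of 6.70 with the mimic, 6.94 with siPVT1-1 and 6.87 with siPVT1-2, near the floor of 6, and alpha-fetoprotein (AFP) had 8.25, 8.39 and 8.18 in that order. The name HepG2 is therefore used only as the labels give it. Among markers of other cell types, 4 of 12 fibroblast genes passed the filter, as did 3 of 10 endothelial, 3 of 12 blood cell and 4 of 12 squamous or other epithelial genes, and none of these genes differed 2-fold between the mimic array and the siPVT1 mean. Some were bright. Lumican (LUM) had 16.57 with the mimic against 16.52 and 16.73 with siPVT1-1 and siPVT1-2, and it weighs most in the fibroblast sum. The keratin KRT7 had 15.64 against 15.75 and 15.83. Others lay near the filter level, such as the endothelial gene PECAM1 at 9.87 with the mimic. The summed normalized intensity of the fibroblast list was 157324 with the mimic against 164587 and 178351 with siPVT1-1 and siPVT1-2. For the squamous and other epithelial list it was 69112 with the mimic against 77823 and 79155, and for the endothelial list 6113 against 7082 and 6567. For the blood cell list it was 14957 against 13800 and 15680, and for the 24 hepatocyte genes with a probe 42205 against 42367 and 41226. Each sum covers all listed genes with a probe, including those under the filter. The part of these markers in the results below was not tested.

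The mimic array and the siPVT1 arrays differed at least 2-fold in 194 of 10668 genes, 1.82% of those compared. Higher with the mimic were 50 genes (0.469%), and lower were 144 (1.35%). Requiring a 2-fold distance from each siPVT1 array on its own left 22 higher genes (0.206%) and 108 lower genes (1.01%), 130 in all (1.22%). Just inside the 2-fold limit on the mean lay CD46 (1.0024) and ANO9 (-1.0043), and just outside it IFNGR1 (0.9987) and ECM1 (-0.9944). LARP4B was left out of these counts because its mimic spot lay at the floor (6.00), against 12.70 with siPVT1-1, 12.62 with siPVT1-2 and 12.82 with NC. IL1RL1 was left out because its siPVT1-2 spot did.

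**Figure D1:**
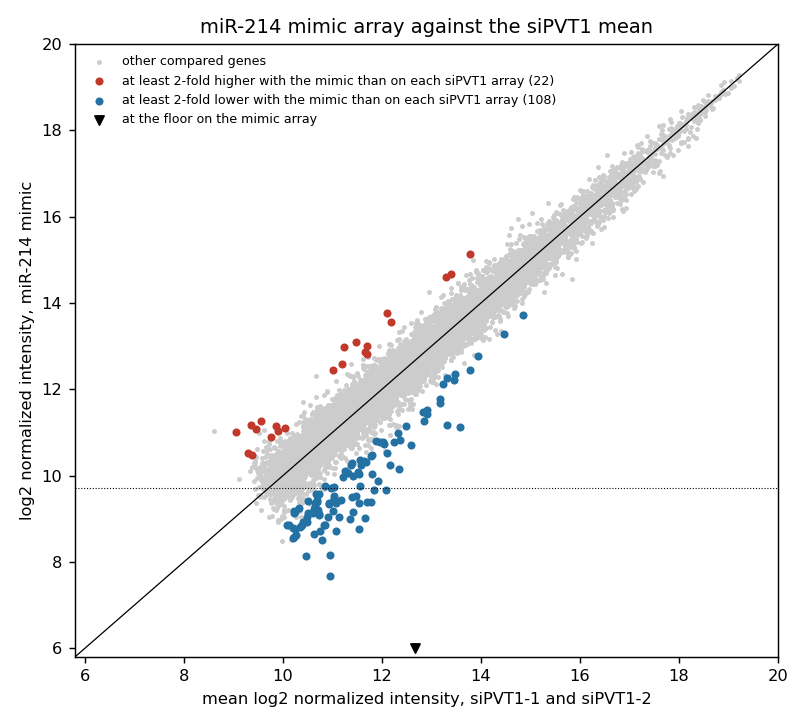
Each point is a compared gene, with its mean log2 normalized intensity over the siPVT1-1 and siPVT1-2 arrays on the x axis and its log2 normalized intensity on the mimic array on the y axis. The 22 genes at least 2-fold higher with the mimic than on each siPVT1 array lie above the diagonal, the 108 lower ones lie below it, and the dotted line marks the level filter of 9.72.

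The mimic array lay closer to siPVT1-2 than to siPVT1-1. Against siPVT1-1 the mimic had 148 higher genes (1.39%) and 174 lower genes (1.63%), 322 in all (3.02%), and against siPVT1-2 it had 28 higher (0.262%) and 150 lower (1.41%), 178 in all (1.67%). The siRNA arrays differed from each other in 53 genes (0.497%), 10 higher (0.0937%) and 43 lower (0.403%) with siPVT1-1. The SD of the log2 differences over all compared genes was 0.45 for mimic minus siPVT1-1, 0.34 for mimic minus siPVT1-2 and 0.29 for siPVT1-1 minus siPVT1-2. The lower genes were therefore counted in like numbers against either siRNA, and 108 were common to both lists, 62.1% of those against siPVT1-1 and 72.0% of those against siPVT1-2. The higher genes were mostly a feature of the siPVT1-1 comparison, since the 22 common ones were 14.9% of the 148 and 78.6% of the 28. These overlaps share the mimic array and so are descriptive only.

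**Figure D2:**
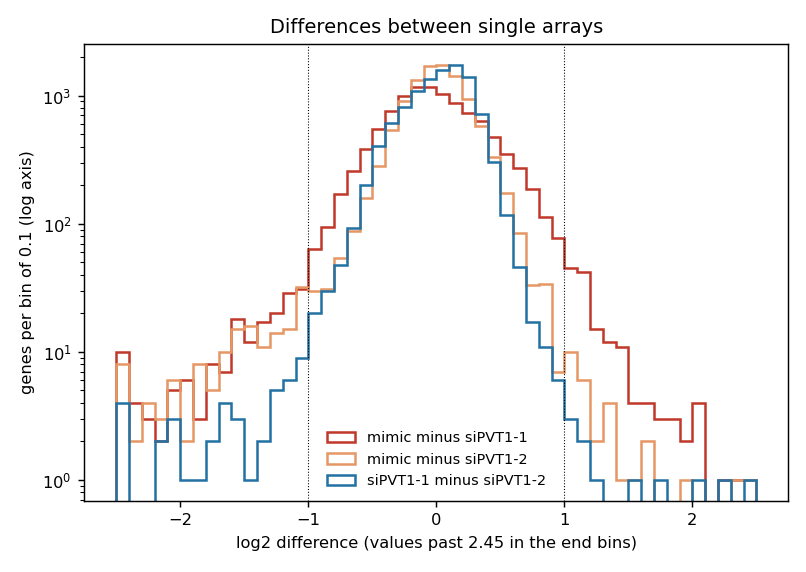
Histograms of the log2 difference between single arrays over 10668 genes, with genes per bin on a log axis and dotted lines at 2-fold. Mimic minus siPVT1-1 has a right tail past 2-fold of 148 genes against 28 for mimic minus siPVT1-2, while their left tails, 174 and 150 genes, are alike and exceed the 43 of siPVT1-1 minus siPVT1-2.

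Amino acid stress genes were higher with the mimic than with the PVT1 siRNAs. In this pathway, shortage of amino acids or stress in the endoplasmic reticulum slows general protein synthesis while the transcription factor ATF4 is made, and ATF4 switches on genes for amino acid synthesis and transport and for cell death control. Of 26 listed genes, 23 were compared, and 4 of these were at least 2-fold higher (17.4%, against 0.469% of all compared genes) and 0 lower. The list's median difference was 0.57, against -0.01 over all compared genes, and 22 of 23 members lay above 0 against 48.0% of all genes. The list was chosen with earlier results of these data known. These shares therefore describe its members on these arrays and are no test against other genes. The median was 0.71 against siPVT1-1 and 0.43 against siPVT1-2. On the siPVT1-1 array the same members stood below siPVT1-2 by a median of -0.43, so the distance between the siRNAs was as large as that between the mimic and siPVT1-2. The order mimic, then siPVT1-2, then siPVT1-1 from high to low held for 15 of the 23 members, against 24.9% of all compared genes.

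INHBE, which encodes a subunit of the hormone activin E, showed the clearest separation in this list. Its log2 level was 11.18 with the mimic against 9.13 with siPVT1-1 and 9.56 with siPVT1-2, a difference of 1.83 (3.56-fold higher), and it was the 1 member past 2-fold against each siRNA. Both siPVT1 spots were under the filter level, so the size of this ratio is uncertain. STC2, a secreted glycoprotein gene, had 12.32 with the mimic against 9.99 and 11.33 with siPVT1-1 and siPVT1-2, and missed 2-fold against siPVT1-2 narrowly (0.98). A second STC2 probe, under the filter, gave 1.27 against siPVT1-1 and 0.15 against siPVT1-2.

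CHAC1, an enzyme gene for glutathione breakdown, had 10.98 with the mimic against 8.48 with siPVT1-1 and 10.56 with siPVT1-2. Its distance of 2.50 from siPVT1-1 and 0.42 from siPVT1-2 shows how far 1 siRNA array set the mean. The siPVT1-1 spot was under the filter level, so the size of the larger distance is uncertain. DDIT3, which encodes the stress transcription factor CHOP, had 15.94 with the mimic against 14.19 and 15.29. The kinase-like ATF4 inhibitor gene TRIB3 had 14.23 with the mimic against 13.16 and 13.63, a difference of 0.83, and its second probe gave 1.27. Sestrin 2 (SESN2), a leucine sensor for growth signalling, had 14.13 with the mimic against 12.81 and 13.59, and asparagine synthetase (ASNS) had 15.83 against 14.67 and 15.25. In each of these genes the mimic level exceeded both siRNA levels, and siPVT1-1 gave the lowest level.

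The synthesis enzymes of the list did not move as 1 block. Cystathionine beta-synthase (CBS) differed by 0.81, cystathionine gamma-lyase (CTH) by 0.59, phosphoserine phosphatase (PSPH) by 0.56, the folate enzyme MTHFD2 by 0.55 and phosphoglycerate dehydrogenase (PHGDH) by 0.43. PSAT1, the enzyme between PHGDH and PSPH in serine synthesis, stood at 0.01, with 0.40 by its second probe, and the mitochondrial serine enzyme SHMT2 at -0.26, with 0.23 by its second probe. ATF4 itself stood at 0.26, with -0.11 by a second probe, and the stress hormone gene GDF15 at 0.58 against siPVT1-1 and -0.05 against siPVT1-2. The ATF4 message is regulated mainly in translation, which arrays do not measure. On the NC array 22 of the 23 genes had a level above all 3 other arrays, so the mimic lay between the siRNA arrays and NC for most of them.

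**Figure D3:**
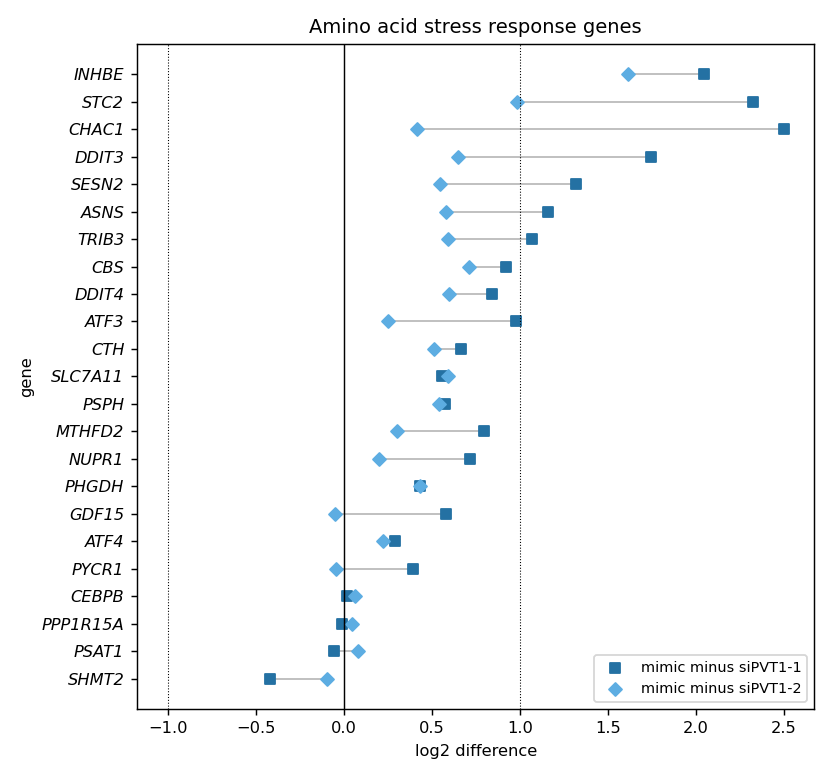
Log2 difference of the mimic array from siPVT1-1 (squares) and from siPVT1-2 (diamonds) for the 23 compared amino acid stress genes, ordered by the mean of both, with dotted lines at 2-fold. 18 genes lie above 0 on both comparisons and 1, SHMT2, lies below 0 on both, while CHAC1, STC2 and DDIT3 show the widest gaps between the siRNAs.

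Promoter stretches are shown for stress genes whose window held a composite ATF4 element, because these genes shared a direction. The 8-letter motif searched was TGATGNAA on both strands, within 250 bases before and 50 after each RefSeq gene start (GRCh38.p14). It was present for 3 of 17 compared members with a promoter entry (17.6%), against 250 of 8757 compared genes (2.85%) and 4.46% of all promoters. The list was made of genes of the ATF4 pathway, so its share describes it and is no test. For the endoplasmic reticulum list the motif was present for 1 of 20 (5%). The matches of ASNS (chr7:97872443-97872502, minus strand), ATF3 (chr1:212565190-212565249, plus strand) and CHAC1 (chr15:40953236-40953295, plus strand) are in capitals, and that of the endoplasmic reticulum gene HERPUD1 (chr16:56931940-56931999, plus strand) is set beside them.
ASNS: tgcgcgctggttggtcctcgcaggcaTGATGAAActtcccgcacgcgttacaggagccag
ATF3: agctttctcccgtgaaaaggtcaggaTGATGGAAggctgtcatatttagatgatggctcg
CHAC1: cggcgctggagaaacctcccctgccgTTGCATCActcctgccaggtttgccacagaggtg
HERPUD1: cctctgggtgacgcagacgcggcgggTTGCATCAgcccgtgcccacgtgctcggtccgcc
CHAC1 and HERPUD1 held the same letters, matching on the reverse strand, while ASNS and ATF3 matched on the forward strand and differed at the free position. A match is a description of these letters and not evidence of binding. The motif was found for 0 of 19 genes past 2-fold higher against each siRNA and for 4 of 81 lower ones (4.94%).

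Related protein synthesis lists differed little. Amino acid transporters had a median difference of 0.08 over 14 genes with 0 past 2-fold, among them the cystine carrier SLC7A11 (0.57), the neutral carrier SLC1A4 (0.53) and the cationic carrier SLC7A1 (0.47). Cytosolic tRNA synthetases had a median of 0.17 over 19 genes, with glycyl (GARS1, 0.56), leucyl (LARS1, 0.50) and glutamyl-prolyl (EPRS1, 0.50) enzymes above 0 and the phenylalanyl subunit FARSA (-0.54) below. Endoplasmic reticulum chaperones and unfolded protein response genes had a median of 0.08 over 22 compared genes, again with 0 past 2-fold. ERN1 of this list, with 7.02 with the mimic against 8.99 and 8.80 (3.67-fold lower), was under the filter and not compared. DNAJB11, a cofactor of the main chaperone there, stood at 0.79 and HERPUD1, a gene of protein disposal, at 0.62, while the disulfide isomerase PDIA3 stood at -0.51 (a dim second probe gave 0.25). XBP1, the transcription factor of this response, had 14.08 with the mimic against 13.99 and 14.21 with siPVT1-1 and siPVT1-2, so its level did not separate the treatments.

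Other genes higher with the mimic against each siRNA were of varied function. The olfactory receptor gene OR5AN1 lay 1.94 above siPVT1-1 and 1.97 above siPVT1-2 on the log2 scale (3.87-fold higher than their mean), with both siRNA spots under the filter level. ALDH7A1, an aldehyde dehydrogenase of lysine breakdown, had 13.77 against 11.76 and 12.43, but a second probe above the filter gave a difference of 0.23. HAAO, an enzyme of tryptophan breakdown, had 13.09 against 11.21 and 11.73. Zyxin (ZYX), a focal adhesion protein gene, had 12.44 against 11.08 and 10.95, and uridine phosphorylase (UPP1), which releases uracil from uridine, had 15.14 against 13.49 and 14.08. The mimic level lay above both siRNA levels by at least 2-fold for all of these, and siPVT1-1 was the lower siRNA for 17 of the 22 genes.

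The remainder of the 15 highest were FAM131B (3.35-fold higher), the acyl-CoA synthetase family gene ACSM4 (3.28-fold), ZPLD1 (3.07-fold), the heparan sulfate enzyme gene NDST4 (2.62-fold), SETSIP (2.59-fold), SLC33A2 (2.49-fold), ZNF276 (a log2 difference of 1.29), the vesicular GABA transporter gene SLC32A1 (2.44-fold) and the phospholipase gene PLA2G5 (2.43-fold). Both siRNA spots of ACSM4, the siPVT1-1 spot of ZPLD1 and the siPVT1-2 spot of SLC32A1 were under the filter level, so these ratios are uncertain. Of the 22 higher genes, 5 had both siRNA spots under it and 15 had all 3 spots above it. Further probes did not carry the calls of this remainder past 2-fold. ZNF276 had 0.24 by a second probe above the filter, and FAM131B (0.06) and ZPLD1 (0.11 and -0.30) had dim ones. Over all 22 higher genes, 6 had further probes, 8 in number, of which 7 had the same sign and 0 passed 2-fold. POLE, the catalytic subunit gene of DNA polymerase epsilon, came nearest, with 12.82 against 11.68 and 11.72 by its brightest probe and a difference of 0.92 by its second.

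The genes lowest with the mimic were further from the siRNA arrays than any higher gene was. SLC22A24, an organic anion transporter family gene, had a log2 level of 7.68 with the mimic against 11.10 and 10.79 with siPVT1-1 and siPVT1-2 (9.58-fold lower). The bitter taste receptor gene TAS2R39 had 8.16 with the mimic, 2.79 below the siPVT1 mean of 10.95, and the pacemaker channel gene HCN4 had 8.76 against 11.30 and 11.78. In each the mimic spot lay under the filter level, and for HCN4 the siRNA spots differed from each other by -0.48 (siPVT1-1 minus siPVT1-2). CSMD2, a complement control domain gene of the brain, had 11.12 with the mimic against 13.60 and 13.53 (5.45-fold lower), and ZNF536, a zinc finger gene of neurons, had 10.14 against 12.47 and 12.22. These were the 2 genes among the 15 lowest whose mimic spot stayed above the filter level.

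The rest of the 15 lowest were lower by 4.53-fold to 6.30-fold. They were CIMIP2B, the eosinophil lectin gene CLC, the serotonin receptor subunit HTR3C, the bile acid receptor GPBAR1, the olfactory receptors OR11G2 and OR51Q1, the purinergic receptor family gene P2RY8, the macrophage adhesion receptor ADGRE1, the bitter taste receptor TAS2R42 (4.73-fold lower) and the transcription cofactor LBH (4.53-fold lower). Of the 108 genes lower against each siRNA, 61 had a mimic spot under the filter level and 47 had all 3 spots above it. The median absolute distance between the siRNA arrays was 0.15 for the 108 genes and 0.18 over all compared genes. The median difference of the 108 for the mimic was -1.49. Because they were picked for their distance from each siRNA array, these values describe them and support nothing.

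Further probes did not carry most of the lower calls. Of the 108 genes, 35 had further probes, 44 in number, of which 21 had a difference below 0 and 3 were past 2-fold lower. Most of these probes were dim, and of the 8 above the filter level 5 lay below 0 and 2 passed 2-fold. For GPBAR1 a dim second probe gave -0.12 and for HCN4 0.03, so the brightest probe alone carried their differences. CMTM7, with -1.40 by its brightest probe, had 0.61 by a second probe above the filter. The part of a single low spot in these calls was not tested.

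SGPP1 and ENTPD7 were the genes for which a second probe above the filter was also past 2-fold on the siPVT1 mean, and they are named for that reason after their values were seen. SGPP1, which encodes a phosphatase of the lipid signal sphingosine-1-phosphate, had 13.28 with the mimic against 14.59 and 14.35 with siPVT1-1 and siPVT1-2 by its brightest probe. Its second probe had 11.18 against 12.32 and 12.50. ENTPD7, an intracellular nucleotide-hydrolysing enzyme gene, had 11.17 against 13.28 and 13.35 by its brightest probe and 9.59 against 10.82 and 10.49 by its second, which was short of 2-fold from siPVT1-2 (-0.90). On the NC array the brightest probes stood at 14.73 for SGPP1 and 12.67 for ENTPD7, above the mimic level in each.

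**Figure D4:**
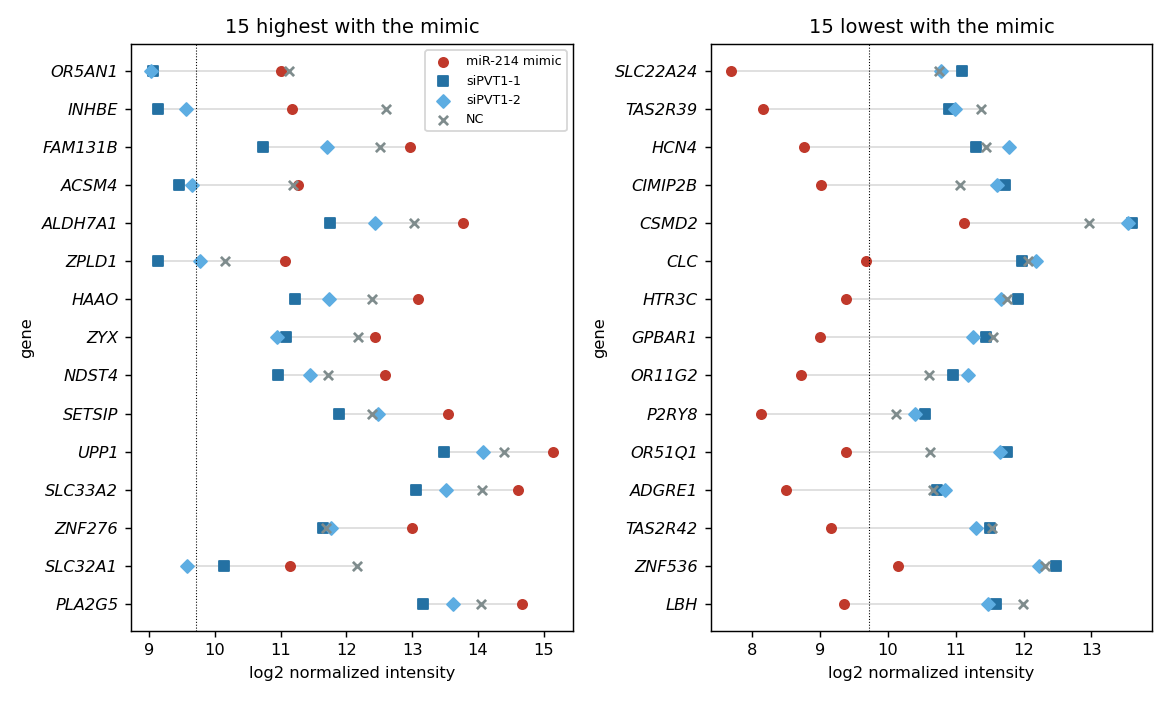
Log2 normalized intensity on the mimic, siPVT1-1, siPVT1-2 and NC arrays for the 15 highest (left) and 15 lowest (right) genes among those at least 2-fold from each siPVT1 array, with the level filter of 9.72 dotted. In the right panel the siRNA spots and, for all 15 genes, the NC spot lie above the mimic spot, and 13 of the 15 mimic spots fall under the filter.

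Olfactory and taste receptor genes, which smell and taste cells use, were taken by symbol because several stood among the lowest. Of 383 genes with a probe, 114 were compared, and 8 of these were lower (7.02%, against 1.35% of all) and 1, OR5AN1, higher. Because the list was taken for its low members, these shares describe it and support no difference from other genes. Their median difference was -0.03, near that of all genes. Of the 8 lower genes, TAS2R39, OR11G2, OR51Q1, TAS2R42 and OR52B4 had a mimic spot under the filter level and passed it through the other arrays, and OR2T8, OR4C46 and OR4C3 had all spots above it. OR2T8 had 10.97 with the mimic against 12.52 and 12.11, and OR4C46 had 10.24 against 11.65 and 11.50.

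The NC array gives the side on which a called gene lay, although it was no part of the difference. For 98 of the 108 lower genes the NC level was nearer the siPVT1 mean than the mimic level, and for 10 it was nearer the mimic. For the 22 higher genes it was nearer the mimic in 15 and nearer the siPVT1 mean in 7. A gene picked for an extreme mimic spot will tend to have every other array on the other side, so the first count describes the genes and supports nothing.

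Heat shock genes, which help proteins to fold, differed by single members, and the inducible chaperone HSPA1A was lower with the mimic. It had 14.55 with the mimic against 16.34 with siPVT1-1 and 15.32 with siPVT1-2 (2.42-fold lower). HSPA1B, a near-identical copy whose probe may share signal with it, had 11.78 against 12.91 and 12.01. BAG3, a cochaperone gene of the same response, had 13.22 against 14.25 and 13.90, and the response's transcription factor gene HSF1 had 13.50 against 14.05 and 13.96. In these genes siPVT1-1 gave the highest of the 3 levels, so HSPA1A passed 2-fold against siPVT1-1 (-1.78) and not against siPVT1-2 (-0.77). Over 19 compared heat shock genes the median difference was -0.13. In this list 1 gene was lower (5.26%, against 1.35% of all compared genes) and 0 were higher (against 0.469%). A single member is not read as a result about the list.

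Genes of the BCL2 family, which control apoptosis, differed within 2-fold. The family had a median of -0.05 over 16 genes. Its death-promoting member PMAIP1 had 13.97 with the mimic against 13.02 and 13.61 with siPVT1-1 and siPVT1-2, with 0.85 by a second probe, while the survival genes BCL2L2 (-0.60) and MCL1 (-0.56) and the death gene BIK (-0.50) lay below 0.

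Genes reported in the literature as miR-214 targets were not lower as a list with the mimic. Of 28 listed, 25 had a probe and 23 were compared. Their median difference was -0.02 against -0.01 over all genes, 0 passed 2-fold either way, and 12 lay below 0. Members below 0 included BCL2L2, with 12.84 with the mimic against 13.53 and 13.36, and beta-catenin (CTNNB1), with 14.81 against 15.55 and 15.19. Further ones were the transcription factor TFAP2C (-0.38), the glycosyltransferase GALNT7 (-0.37), E2F2 (-0.36), the GTPase gene ARL2 (-0.31), MAP2K3 (-0.25), ING4 (-0.18), PIM1 (-0.15), QKI (-0.14), FGFR1 (-0.03) and XBP1 (-0.02). The list's median changed sign in 4 of 12 settings, the main one included, with a range of -0.03 to 0.15, so it had no stable direction.

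Members above 0 were as large in size. The adhesion receptor gene ALCAM had 13.15 with the mimic against 12.47 and 12.49, the cell cycle factor E2F3 had 13.88 against 13.22 and 13.30, and the kinase CDK6 had 11.23 against 10.24 and 11.05. SRGAP1 (0.39), ATF4 (0.26), the Polycomb methyltransferase EZH2 (0.24), MAPK8 (0.24), SUFU (0.16), HDGF (0.15), TWIST1 (0.09) and the integrin ITGA3 (0.05) were the others. Other probes of these genes disagreed in places, with -0.17 for HDGF, -0.14 for SRGAP1 and -0.05 for SUFU by probes above the filter, and with 0.77 for ING4 and 0.78 for FGFR1 by dim probes.

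MYC, the neighbour of PVT1, had 14.03 with the mimic against 13.50 with siPVT1-1 and 13.69 with siPVT1-2, a difference of 0.43. CYRIB, a further gene of the region, had 14.67 against 14.11 and 14.78, so by its brightest probe the mimic lay between the siRNAs. Its second probe, above the filter, had 12.24 against 11.77 and 12.15, with the mimic above both. POU5F1B (0.11) and ASAP1 (0.09) differed less, and none of the 4 compared locus genes passed 2-fold. Ribosome biogenesis genes driven by MYC had a median of 0.12 over 25 genes with 0 past 2-fold, the polymerase subunit POLR1A (0.54) and the nucleolar factor UBTF (-0.52; 0.29 by a second probe) being at the ends.

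Cell cycle genes differed by single members. Among 27 mitosis genes the median was 0.18 and 1 was past 2-fold higher (3.70%, against 0.469% of all compared genes). This was the kinetochore gene NUF2, with 11.87 with the mimic against 10.68 and 10.97. Cyclin A2 (CCNA2, 0.51; second probe 0.34) and the checkpoint gene MAD2L1 (0.41) lay above 0 and the motor gene CENPE (-0.52) below. Among 31 DNA replication genes the median was -0.01. POLE was the 1 past 2-fold (3.23%, against the same 0.469%), followed by the origin recognition gene ORC6 (0.85). The G1 list had a median of -0.13 over 21 genes, with the kinase CDK2 at -0.84, the inhibitor CDKN1C at -0.69, E2F3 at 0.62 and CDK6 at 0.59.

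ADM and ADM2, the adrenomedullin genes of the vasoactive peptide list, were at least 2-fold higher with the mimic. They were 2 of its 8 compared genes (25%, against 0.469% of all compared genes), and 0 were lower. ADM5, a related gene outside that list and named after its values were seen, went the other way, with 12.61 with the mimic against 13.83 and 13.48 with siPVT1-1 and siPVT1-2 (2.06-fold lower). ADM, a vasodilator peptide gene induced by low oxygen, had 14.99 with the mimic against 13.49 and 14.19 with siPVT1-1 and siPVT1-2 (2.21-fold higher). ADM2, a related peptide gene, had 11.11 against 10.01 and 10.09 and passed 2-fold against each, with dim further probes at 0.03 and 0.26. The endothelin genes EDN1 (-0.24) and EDN2 (0.12) differed by less than 2-fold, and EDN3, with 6.99 against 8.40 and 8.31, was under the filter and not compared. The angiogenic factor gene VEGFA had 13.54 with the mimic against 12.40 and 12.76, a difference of 0.97, with 0.69 by a second probe. The glycolysis and hypoxia list had a median of 0.09 over 26 genes with ADM as the 1 past 2-fold (3.85%, against 0.469%). The growth signalling inhibitor DDIT4 stood at 0.72, while the glycolytic enzyme PFKL stood at -0.48. In sterol and fatty acid synthesis the median was 0.06 over 21 genes with 0 past 2-fold, with the chain-lengthening enzyme ELOVL6 at 0.87 and the sterol demethylase CYP51A1 at 0.66.

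Genes that act on small RNAs differed within 2-fold in all 16 compared members, with a median of -0.14. AGO4, with 8.84 with the mimic against 10.15 with siPVT1-1 and 10.19 with siPVT1-2, was under the filter and not compared. The processing enzyme DICER1 (0.58), the exporter XPO5 (0.50) and the DICER1 partner PRKRA (0.44) lay above 0 and another such partner, TARBP2 (-0.39; 0.23 by a second probe) below. Interferon and RNA sensing genes, which respond to double-stranded RNA, had a median of -0.14 over 19 compared genes with 0 past 2-fold. Another 7 were under the filter, among them IFI27, with 7.52 with the mimic against 9.96 and 9.25 (4.25-fold lower). IFI6, an interferon-induced gene, had 9.93 with the mimic against 11.17 and 10.50 with siPVT1-1 and siPVT1-2, and its second probe had 9.81 against 11.22 and 10.41. IRF9 stood at -0.51 (second probe -0.75), OAS3 at -0.45 (second probe 0.20) and USP18 at -0.41 (second probe -0.21). Inflammatory genes had a median of 0.06 over 20 genes, with the chemokine CXCL2 at 0.86 and the NF-kB inhibitor TNFAIP3 at 0.50.

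Signalling lists each held at most 1 compared gene past 2-fold. That gene made up 9.09% of the EGF receptor and MAPK feedback list (higher, against 0.469% of all compared genes). In the immediate early list it made up 5.56% (lower, against 1.35%). In the EGF receptor and MAPK feedback list 9 of 11 compared genes lay above 0, against 48.0% of all compared genes, with a median of 0.15. The ETS factor gene ETV4 had 10.62 with the mimic against 9.21 and 9.73 (2.22-fold higher), and the phosphatase DUSP4 had 11.55 against 10.30 and 11.37. In the immediate early list EGR3 had 9.36 with the mimic against 10.65 with each siRNA (a log2 difference of -1.29, with a mimic spot under the filter), while JUNB stood at 0.63, and the median was -0.07 over 18 genes. WNT feedback genes had a median of -0.11 over 11 genes, with FZD5 at -0.46, cyclin D1 (CCND1) at -0.45 and the WNT inhibitor DKK1 at 0.32. YAP, adhesion and invasion genes had a median of 0.04 over 19 genes, with the integrin ITGA2 at 0.71 and the YAP target CCN1 at 0.71 against siPVT1-1 and -0.07 against siPVT1-2.

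Housekeeping and remaining lists centred near 0. Medians were 0.02 for 28 proteasome genes, -0.0044 for 33 respiratory chain genes, 0.03 for 32 ribosomal proteins, -0.13 for 29 autophagy and lysosome genes, -0.0020 for 23 NRF2 and glutathione genes, 0.11 for 19 Polycomb and DNA methylation genes, 0.18 for 8 metallothionein genes, -0.12 for 9 keratins and -0.01 for 7 BEX and TCEAL genes. PSMA6, a proteasome core subunit, was the 1 compared gene of these lists past 2-fold. It had 9.53 with the mimic against 11.52 and 11.42 (3.85-fold lower). This was a single spot under the filter in a list otherwise within 0.54 of 0. The gene made up 3.57% of the proteasome list, against 1.35% of all compared genes lower. The metallothionein MT1M, with 6.26 with the mimic against 8.69 and 8.64 (5.30-fold lower), was under the filter and not compared. The heme-degrading enzyme HMOX1 stood at -0.69, the autophagy gene ATG14 at -0.68 and the keratin KRT15 at -0.74. DNMT1, the maintenance DNA methyltransferase, stood at 0.65 and the de novo enzyme DNMT3B at -0.60. The hepatocyte markers had a median of 0.04 over 6 genes, and the fibroblast, endothelial, blood cell and squamous lists had -0.22, -0.10, -0.04 and -0.13 over 4, 3, 3 and 4 genes. Several of the medians near 0 changed sign with the settings, such as that of the BCL2 family (2 of 12 settings, the main one included). Those of the amino acid stress, tRNA synthetase, mitosis, heat shock and small RNA lists did so in 0. Some medians near 0 kept their sign too, such as those of the ribosomal protein (0.03) and inflammatory (0.06) lists. All settings reprocess the same arrays, so a kept sign does not stand for replication.

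**Figure D5:**
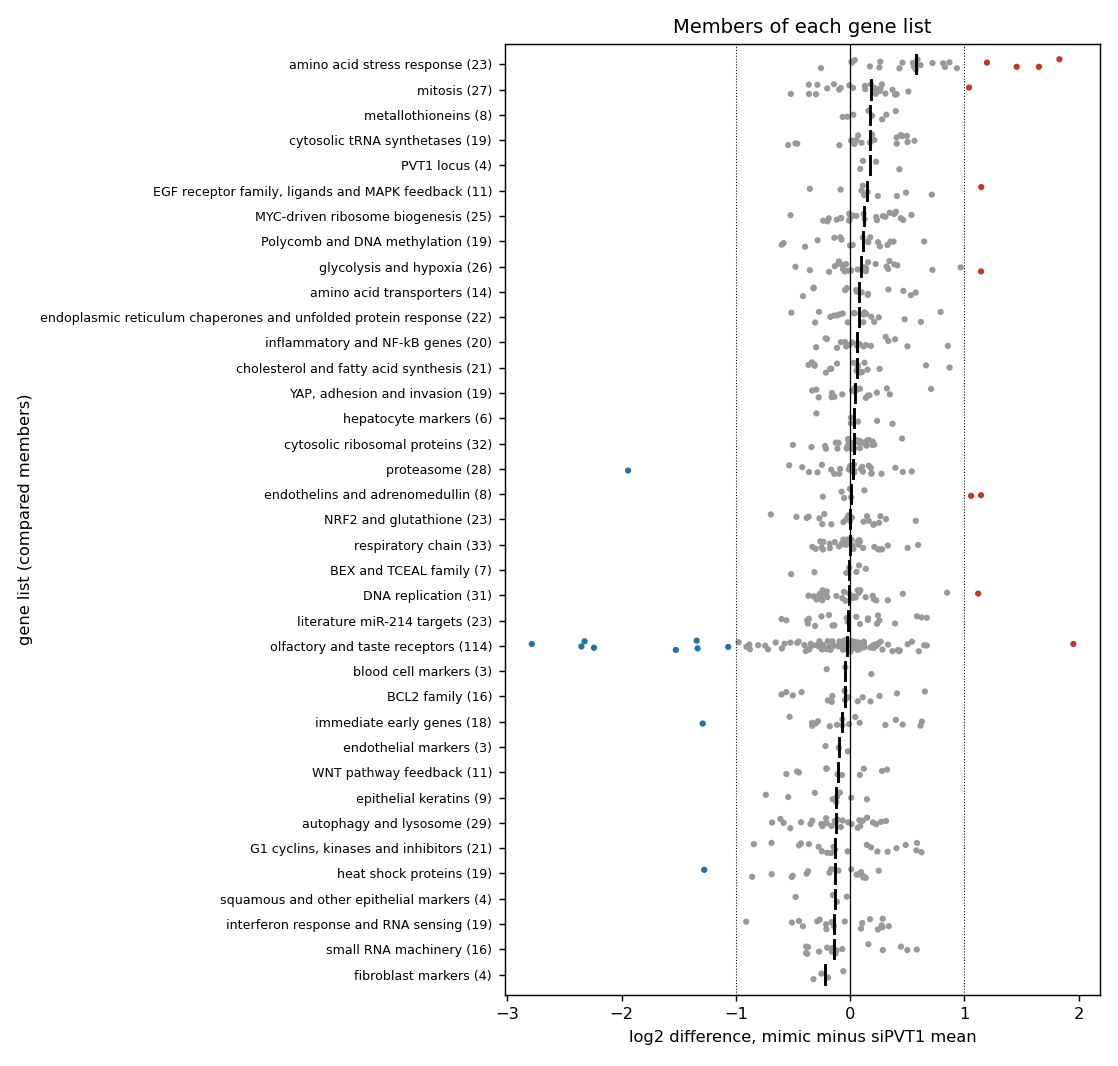
Log2 difference, mimic minus siPVT1 mean, for each compared member of the gene lists described here (points, spread vertically for view), with the list median as a bar, dotted lines at 2-fold and the number of compared members in brackets. The amino acid stress list has the highest median, 0.57 with 4 members past 2-fold higher, and the other medians lie between -0.22 and 0.18.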

How the data were processed

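The authors deposited linear array intensities with background subtracted, as values below 0 show (101 of 28264 on the mimic array). RNA was amplified and labelled with Cy5, per the labels' protocols, and hybridised in 1 colour to OneArray Plus chips, per the series' design text; neither names the scanner software. Quantile normalization over the 4 arrays used limma 3.58.1 (R 4.3.3). Values under 64 were raised to 64 before log2, and a log2 difference of 1 is 2-fold. Genes took their brightest probe by mean level, and those above the probe median were compared; 2 genes at the floor were not counted. Probe names come from the platform annotation, with symbols updated by Entrez identifier (25893 of 25893 matched) to RefSeq GRCh38.p14.

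With 1 array per group, results are differences with no test, and a limma fit of both siPVT1 arrays as 1 group was an alternative. The procedure was checked on simulated data. The comparison and the 37 gene lists (859 entries, 801 with a probe) were chosen with earlier results of these data known. Results for 1 list are not reported here. Named genes were the 15 highest and 15 lowest past 2-fold against each siRNA, up to 4 members of each list by size of difference, all compared miR-214 literature targets and locus genes, and the amino acid stress genes, which beyond the first 4 were chosen after their values were seen. Any other gene named was chosen after its values were seen. Other normalizations, filters, floors and fold limits, and leaving out each siPVT1 array, were also tried, as given in the closing section. The number of arrays limits the precision.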

Additional observations from a re-analysis of the deposited data

Results flagged for a closer look

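Among the 1003 probes above the level filter that have no gene name here, 6 were at least 2-fold higher and 22 at least 2-fold lower with the mimic than with each siRNA. Of the compared genes, each taken by its brightest probe, 0.206% were higher and 1.01% lower by this rule, with 2 genes at the floor not called. Unnamed probes at the floor were not left out, so these counts and shares are not on the same basis. Only 1 of the unnamed probes was at least 2-fold above all 3 other arrays, at 12.22 with the mimic against 10.78 with siPVT1-1, 11.16 with siPVT1-2 and 10.73 with NC. It stands outside the gene comparison and is given as a value.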

How the results depend on the processing

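Counts of genes higher and lower with the mimic than the siPVT1 mean (50 and 144), counts against each siRNA (22 and 108) and counts for siPVT1-1 against siPVT1-2 (10 and 43) are given in that order. They became 96 and 372, 47 and 290, and 57 and 146 without a level filter. With the filter at the 75th percentile they were 19 and 32, 10 and 19, and 4 and 6. At 1.5-fold they were 395 and 460, 153 and 279, and 103 and 251, and at 3-fold 8 and 40, 3 and 35, and 3 and 18. With all 3 spots required above the filter, chosen after seeing the data, they were 36 and 71, 15 and 47, and 5 and 26. With 1 siRNA array left out, the mimic had 28 to 148 higher and 150 to 174 lower genes, the low higher count being without siPVT1-1. The 4 higher amino acid stress members became 1 at the 75th percentile, 11 at 1.5-fold, 2 at 3-fold, 2 with all spots above the filter, and 1 to 7 with an siRNA left out (1 without siPVT1-1); the list median ranged from 0.43 to 0.71. limma with both siPVT1 arrays as 1 group of 2, assuming that the lone mimic array varies like them, gave 176 higher and 269 lower genes at a Benjamini-Hochberg adjusted p under 0.05; its spread was pooled over all genes. Deposited values, median centring, cyclic loess, normalization without NC, a floor of 16 and averaged probes kept every one of the first 4 counts within 1.5 times. Of 1925 values for named genes over the alternatives, 118 moved by more than 0.207, the SD implied by the siRNA arrays, and 0 past 2-fold changed sign. Dim mimic spots limit many of the lower calls. No paired analysis was possible because each group holds 1 array.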
